A study of Homo sapiens with 2 samples.

Results

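The genes described here make, carry and release lipids, and they were read in H1299, a widely used line of human non-small cell lung cancer cells. One culture had received a miR-138 mimic, a synthetic duplex that supplies the mature microRNA, and the other a negative control duplex, the NC mimic. They were chosen by name, from values of these same arrays, as the fatty acid elongases, sphingolipid enzymes, fatty acid carriers, cytosolic phospholipase and sterol pathway enzyme in the deposited table. There are 8 of them among the 221 features of that table that the platform annotates to 1 gene (243 features in all). Because the values chose the genes, their differences are a description and carry no test.

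The miR-138 mimic group and the NC mimic group were each 1 array of H1299 cells, with no other treatment or genotype between them. Both cultures grew in RPMI-1640 with 10% fetal bovine serum, were lipofected at 70% confluence and were read 48 h later on an Affymetrix human transcriptome array. Nothing in the labels describes further cultures, so no value below can be set against a spread between replicates, and "higher" and "lower" describe these 2 arrays. The labels give neither the sequence of the mimics nor their dose. The feature of MIR138-1, a gene of miR-138, read 14.07 on the miR-138 mimic array and 6.13 on the NC mimic array (log2 signal), the direction the labels give; whether its probes read the mimic or transcripts of the gene was not tested.

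Mature miR-138-5p is shown because its seed, bases 2 to 8 (in capitals), is the stretch by which a microRNA pairs with messenger RNAs. RefSeq (GRCh38.p14) gives the same 23-base sequence for both genes that encode it, MIR138-1 at chr3:44114234-44114256 and MIR138-2 at chr16:56858527-56858549, each on the plus strand.
hsa-miR-138-5p: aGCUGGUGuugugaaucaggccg
A site that pairs with all of the seed reads CACCAGC in DNA letters. Transcript sequences were not used here, so which of the 8 messages hold such a site was not examined.

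Cells build long fatty acids by elongating shorter ones in the endoplasmic reticulum, and join them to serine-derived bases to make ceramide and the other sphingolipids. Carriers bring fatty acids into the cell and move them through the cytosol, where they are activated to acyl-CoA. Phospholipase A2 enzymes cut fatty acids, among them the eicosanoid precursor arachidonic acid, back out of membrane phospholipids. The mevalonate pathway makes isoprenoids, which feed cholesterol synthesis and the lipid anchors of small GTPases.

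Of the 8 genes, 4 were higher on the miR-138 mimic array, ELOVL4, ELOVL7, UGT8 and FABP5, and 4 were lower, SPTSSA, SLC27A2, PLA2G4A and FDPS. In the whole table, 42.8% of features were higher and 57.2% were lower, and these shares are given as background only. The higher genes lay close to the limit of the table, which holds no difference under 1 on the log2 scale (2-fold). Their log2 differences ran from 1.04 to 1.2, with a median of 1.075 against 1.225 over all 104 higher features. The lower genes spread further, with log2 differences from -1.81 to -1.19 and a median of -1.415 against -1.24 over all 139 lower features. None of the 8 reached a difference of 2 (4-fold). RNA was taken from the whole culture, so fewer cells that make a message and less of it per cell cannot be told apart.

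**Figure D1:**
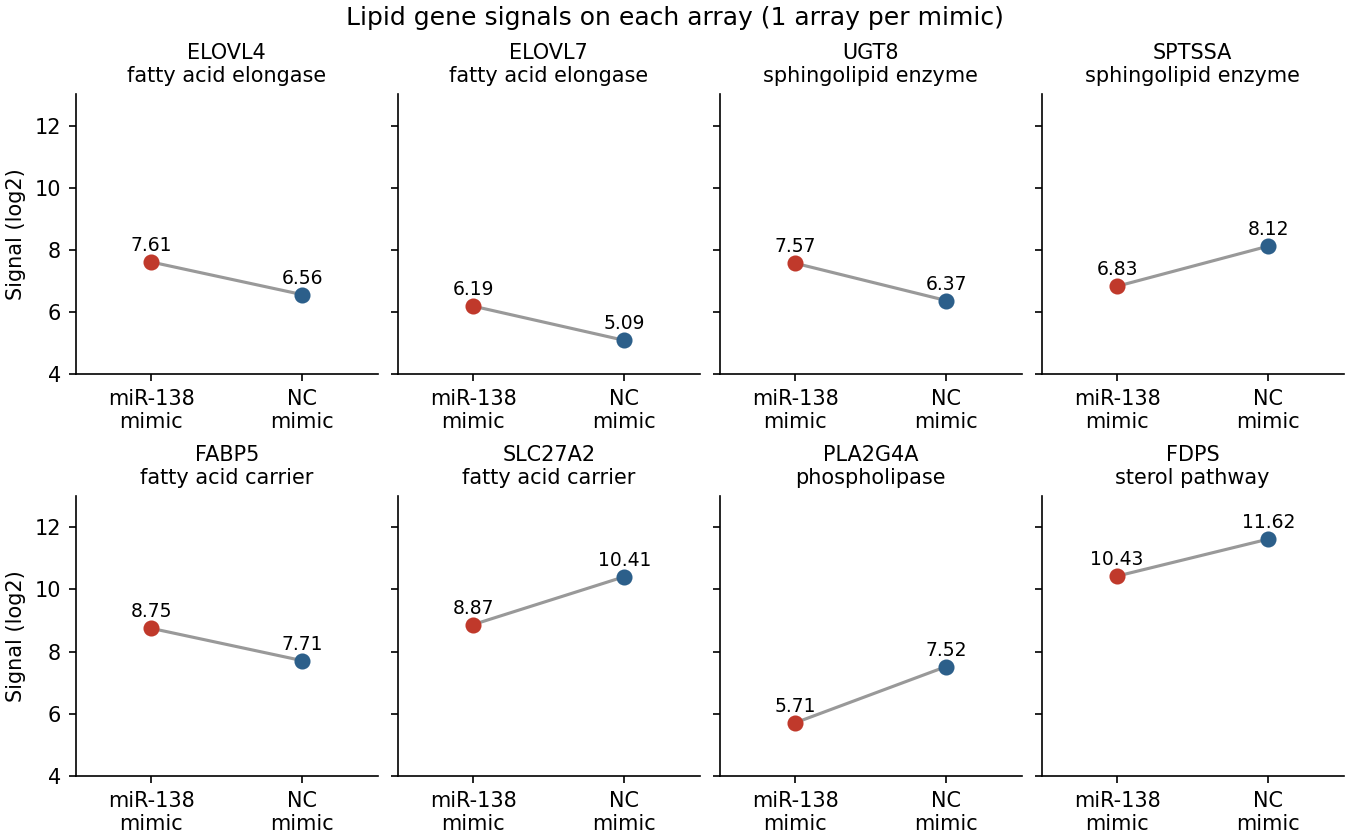
Log2 signal of each of the 8 lipid genes (vertical axis) on the miR-138 mimic array (red, left) and the NC mimic array (blue, right), 1 array per mimic, with no error bars because there are no replicates. ELOVL4, ELOVL7, UGT8 and FABP5 slope down to the right and SPTSSA, SLC27A2, PLA2G4A and FDPS slope up; heights of different genes are not comparable, since each has its own probes.

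Both elongases in the table were higher with the miR-138 mimic. They catalyse the condensing step that adds carbons to an acyl-CoA: ELOVL4 makes the very long chains found in retina, skin and brain, and ELOVL7 acts mainly on saturated long chains. ELOVL4 had a log2 signal of 7.61 on the miR-138 mimic array and 6.56 on the NC mimic array. On the linear scale that is 195 against 94.4, a difference of 1.05 on the log2 scale or 2.07-fold. ELOVL7 had a log2 signal of 6.19 on the miR-138 mimic array and 5.09 on the NC mimic array, a difference of 1.10 or 2.14-fold. The log2 differences of the pair were thus 0.05 apart. They ranked 81 and 68 by size among the 104 higher features, and both differences were under the median of that side, 1.225. ELOVL7 was also the single gene of the 8 whose mean level, 5.64, fell in the lowest 25% of the table (below 6.57). The list of fatty acid elongation and desaturation held 22 symbols, and ELOVL4 and ELOVL7 were the only ones among the table's features. The other elongases and the desaturases were therefore not analysed here.

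The sequences before the starts of ELOVL4 and ELOVL7 are shown because both family members were higher on the miR-138 mimic array. Each line gives the 250 bases before the start of the gene, 5′ to 3′ on the gene's strand, from RefSeq. Capitals mark matches on either strand to any of 3 common promoter motifs: the E-box (CACGTG), the CCAAT box to which the factor NF-Y can bind (ATTGG where it lies on the opposite strand) and the GC box (GGGCGG, or CCGCCC on the opposite strand).
ELOVL4 (chr6:79947554-79947803, minus strand, GRCh38.p14): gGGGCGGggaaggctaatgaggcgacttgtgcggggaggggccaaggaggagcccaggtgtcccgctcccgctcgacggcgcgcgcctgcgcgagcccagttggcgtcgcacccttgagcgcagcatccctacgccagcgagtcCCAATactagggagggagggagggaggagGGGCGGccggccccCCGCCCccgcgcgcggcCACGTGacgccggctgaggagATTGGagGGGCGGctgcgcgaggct
ELOVL7 (chr5:60844270-60844519, minus strand, GRCh38.p14): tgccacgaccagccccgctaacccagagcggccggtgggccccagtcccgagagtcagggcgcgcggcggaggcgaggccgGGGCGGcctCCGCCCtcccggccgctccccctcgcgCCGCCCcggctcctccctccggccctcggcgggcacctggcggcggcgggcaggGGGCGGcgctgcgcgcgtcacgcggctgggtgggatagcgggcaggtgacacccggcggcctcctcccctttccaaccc
Both held the GC box 4 times. The E-box and the CCAAT box were found in the ELOVL4 window, with the E-box beginning 46 bases before the start, and no match to either was found in the ELOVL7 window. GC content was 74.4% for ELOVL4 and 80.8% for ELOVL7, against a median of 58.0% over the 35116 windows in the reference table.

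FDPS was lower with the miR-138 mimic. It encodes farnesyl diphosphate synthase, the mevalonate pathway enzyme that nitrogen-containing bisphosphonates inhibit, whose product leads both to squalene and sterols and to protein prenylation. Its log2 signal was 10.43 on the miR-138 mimic array and 11.62 on the NC mimic array. The linear signal was 1380 against 3147.5, so that 43.8% of the NC mimic signal was read with the miR-138 mimic (log2 difference -1.19). This was the smallest difference of the 4 lower genes and ranked 82 by size among the 139 lower features. FDPS was the only one of 42 listed symbols of sterol and isoprenoid synthesis in the table. The enzymes before and after it, the sterol-sensing factors and the LDL receptor were on that list and were not analysed here.

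The window before the start of FDPS is shown because genes of the sterol pathway are known targets of the SREBP factors, which often act beside NF-Y.
FDPS (chr1:155308616-155308865, plus strand, GRCh38.p14): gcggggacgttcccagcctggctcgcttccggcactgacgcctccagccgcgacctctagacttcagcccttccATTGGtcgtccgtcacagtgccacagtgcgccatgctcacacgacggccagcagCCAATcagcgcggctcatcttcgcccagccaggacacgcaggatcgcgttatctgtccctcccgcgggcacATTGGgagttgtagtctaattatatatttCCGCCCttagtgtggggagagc
It held the CCAAT box 3 times, beginning 176, 122 and 51 bases before the start, and the GC box 1 time, 22 bases before it. The core of the classical sterol regulatory element (TCACNCCAC, where N is any base) had no match in this window. That says only that these letters are not there. The same core was found in 0.883% of all windows.

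The 2 sphingolipid genes lay on opposite sides. UGT8, the enzyme that joins galactose to ceramide to give galactosylceramide, a main lipid of myelin, had the largest positive difference of the 8. Its log2 signal was 7.57 on the miR-138 mimic array and 6.37 on the NC mimic array, a difference of 1.2 or 2.30-fold, which placed it 55 by size among the 104 higher features. SPTSSA encodes a small subunit that activates serine palmitoyltransferase, the enzyme of the entry step into all sphingolipids. Its log2 signal was 6.83 on the miR-138 mimic array and 8.12 on the NC mimic array, a difference of -1.29, or 40.9% of the NC mimic signal. The entry-step subunit was thus lower and the galactosyl branch enzyme higher, with 2.49 log2 units between their differences. Of 62 listed symbols for sphingolipid synthesis and breakdown, these were the only ones in the table. The catalytic subunits that SPTSSA binds, the ceramide synthases and the glucosyl branch enzyme UGCG were among the listed genes not analysed here.

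The fatty acid carriers were also split. FABP5, coded to chromosome 8, is a small cytosolic protein that binds fatty acids and can deliver them to nuclear receptors. Its log2 signal was 8.75 on the miR-138 mimic array and 7.71 on the NC mimic array. The difference of 1.04 (2.06-fold) was the closest of the 8 to the limit of the table, 0.04 above it. FABP5 and FDPS both have pseudogenes of similar sequence, and hybridisation to those was not separated from the genes' own signal. SLC27A2, coded to chromosome 15, is a membrane protein that takes up fatty acids and activates very long chains to acyl-CoA. Its log2 signal was 8.87 on the miR-138 mimic array and 10.41 on the NC mimic array. The linear signal was 468 against 1361, a difference of -1.54 on the log2 scale, or 34.4% of the NC mimic signal. FABP5 and SLC27A2 were 2.58 log2 units apart in their differences, the widest gap among the 3 pairs that share a role. Of 39 listed carriers and acyl-CoA synthetases, these were the only ones in the table.

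**Figure D2:**
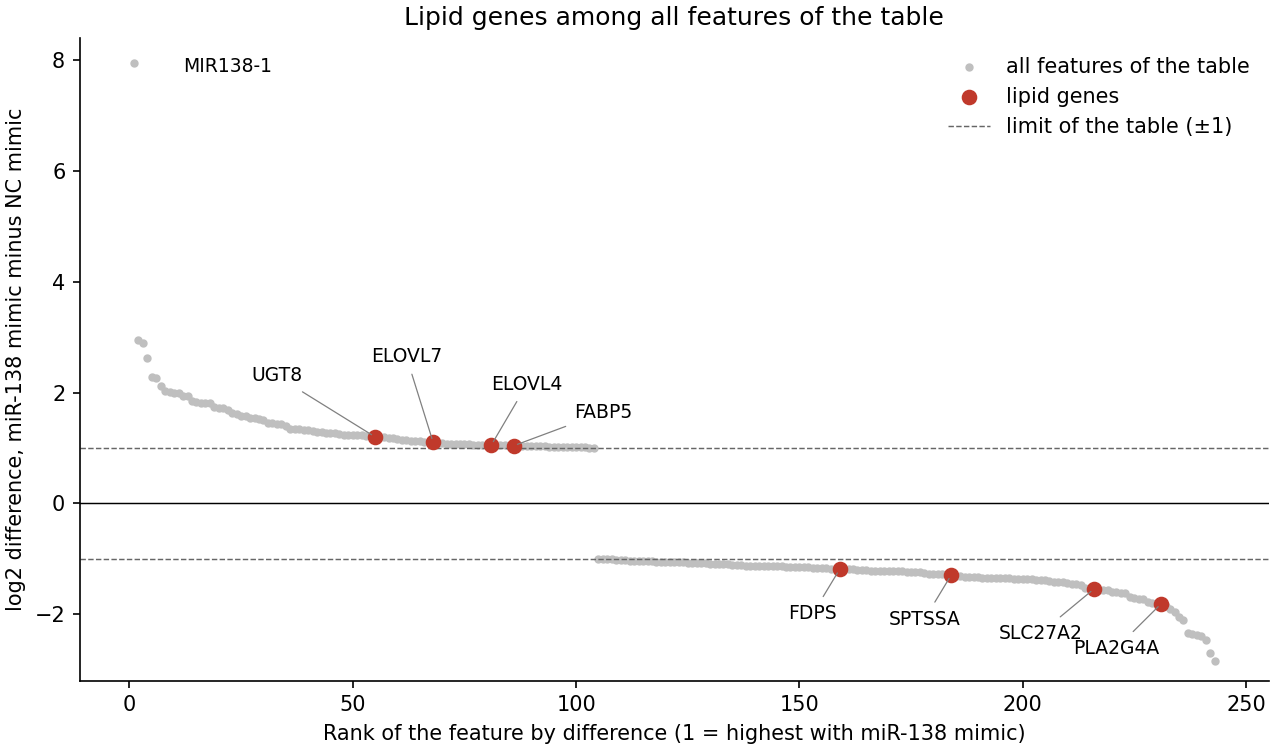
Log2 difference, miR-138 mimic minus NC mimic (vertical axis), of all 243 features ranked from the highest to the lowest (horizontal axis); grey points are all features, red points the 8 lipid genes, and dashed lines the limit of the table at 1 and -1. UGT8, ELOVL7, ELOVL4 and FABP5 sit on the flat part of the higher side, between 1.2 and 1.04, and PLA2G4A, at -1.81, lies farthest along the lower side.

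PLA2G4A had the largest difference of the 8 and was lower with the miR-138 mimic. It encodes cytosolic phospholipase A2 alpha, which calcium brings to membranes, where it releases arachidonic acid for prostaglandin and leukotriene synthesis. Its log2 signal was 5.71 on the miR-138 mimic array and 7.52 on the NC mimic array. On the linear scale the signal was 52.3 against 184, so that 28.5% of the NC mimic signal was read with the miR-138 mimic (log2 difference -1.81). It ranked 13 by size among the 139 lower features, and 87.2% of the whole table had a smaller difference. Its mean level, 6.615, lay just above the lowest 25% of levels. Of 80 listed phospholipases, eicosanoid enzymes and their receptors, the only other gene in the table was PLCB4, a phospholipase C that cleaves a phosphoinositide in response to G protein-coupled receptors. PLCB4 was higher, with a log2 signal of 7.64 on the miR-138 mimic array and 6.44 on the NC mimic array (1.2). The cyclooxygenases, lipoxygenases and prostaglandin receptors of that list were not analysed here.

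The window before the start of PLA2G4A is shown as the gene with the largest difference.
PLA2G4A (chr1:186828699-186828948, plus strand, GRCh38.p14): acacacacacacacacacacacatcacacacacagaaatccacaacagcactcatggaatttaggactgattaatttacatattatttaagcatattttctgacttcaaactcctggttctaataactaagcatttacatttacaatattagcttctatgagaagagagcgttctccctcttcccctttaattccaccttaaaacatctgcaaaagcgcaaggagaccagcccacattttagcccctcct
None of the motifs searched had a match there. It opens with a run of alternating A and C. Its GC content, 38.8%, was the lowest among the windows searched, which left out FABP5.

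Windows of 7 of the lipid genes were searched, 9 windows in all because UGT8 has 3 starts. FABP5, which was higher with the miR-138 mimic, was not among them, since member windows on chromosome 8 were left out. The GC box was found in windows of 6 of the 7 genes. By window, that was 8 of the 9, against 42.6% of all windows. The GC box is made of G and C only, and 7 of the 9 windows had a GC content above the median of all windows, 58.0%. How far GC content accounts for the GC box share was not tested. The CCAAT box was found in 3 genes, ELOVL4, SPTSSA and FDPS, which is 3 of the 9 windows, against 32.0% of all windows. The E-box was found in 2 of the 9 windows, that of ELOVL4 and 1 of UGT8, against 6.34% of all windows. Both genes were higher with the miR-138 mimic, while ELOVL7, also higher, had no match and FABP5 was not searched. A link between the E-box and direction was not tested. None of the 9 windows held the TATA box (TATAAA), which 10.7% of all windows held. The motifs did not overlap one another, except for 2 overlapping GC boxes of SPTSSA. Neither the CCAAT box nor the GC box separated the higher genes from the lower ones, and a match is a description of letters, not a site.

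**Figure D3:**
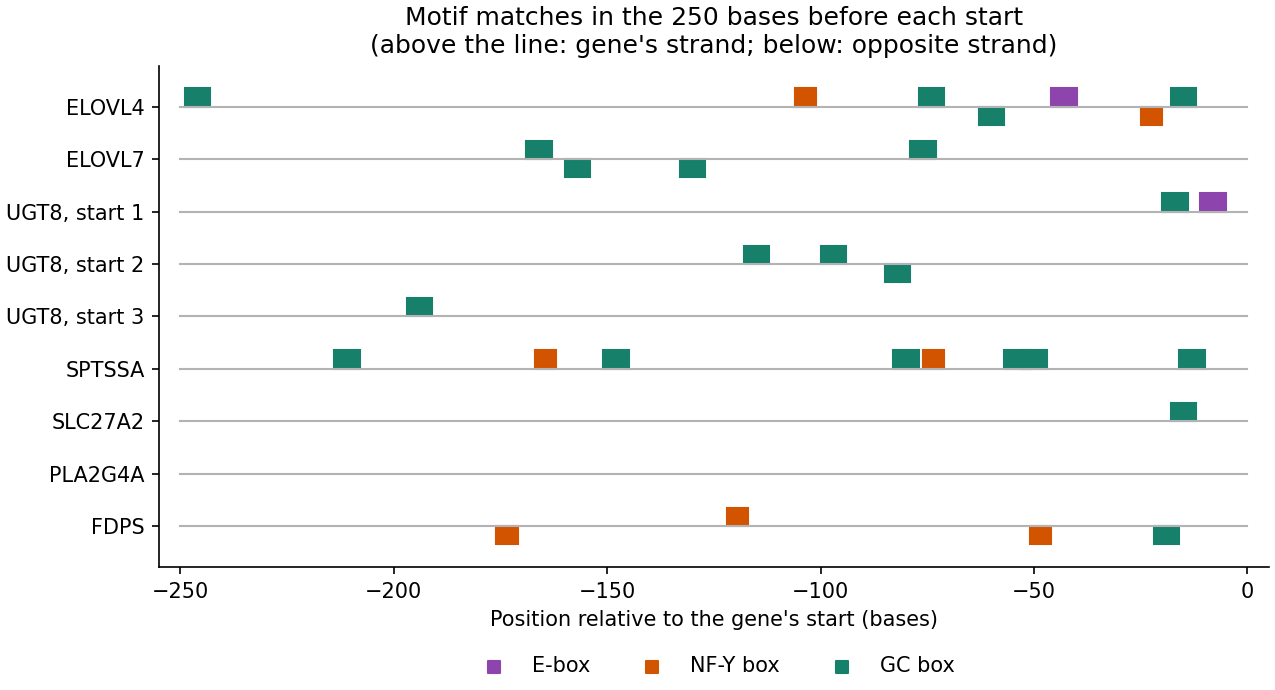
Matches to the E-box (purple), the NF-Y or CCAAT box (orange) and the GC box (green) by position before each start of 7 lipid genes, in bases (horizontal axis), with matches on the gene's strand above each line and on the opposite strand below it. ELOVL4, SPTSSA and FDPS carry both the GC box and the CCAAT box, with the CCAAT box 3 times in FDPS, and PLA2G4A carries no match.

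In all, 11 lists of lipid genes with 507 symbols had 11 genes in the table, of which 5 were higher and 6 were lower. Among all features with 1 gene, 41.2% were higher and 58.8% were lower. Apart from the 8 genes above and PLCB4, these were ATP8B4 and PDK4. ATP8B4, of the family of ATPases that flip phospholipids between membrane leaflets, read 5.56 on the miR-138 mimic array and 7.61 on the NC mimic array (-2.05), a larger difference than any of the 8. PDK4, the kinase that shuts off pyruvate dehydrogenase when cells burn fatty acids, read 4.96 on the miR-138 mimic array and 6.76 on the NC mimic array (-1.80). No gene of 4 lists was in the table: fatty acid synthesis, sterol and lipoprotein transport, glycerolipid synthesis and storage, and lipid-sensing nuclear receptors. A gene outside the table was not analysed here, so an empty list does not show that its genes were alike on both arrays.

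**Figure D4:**
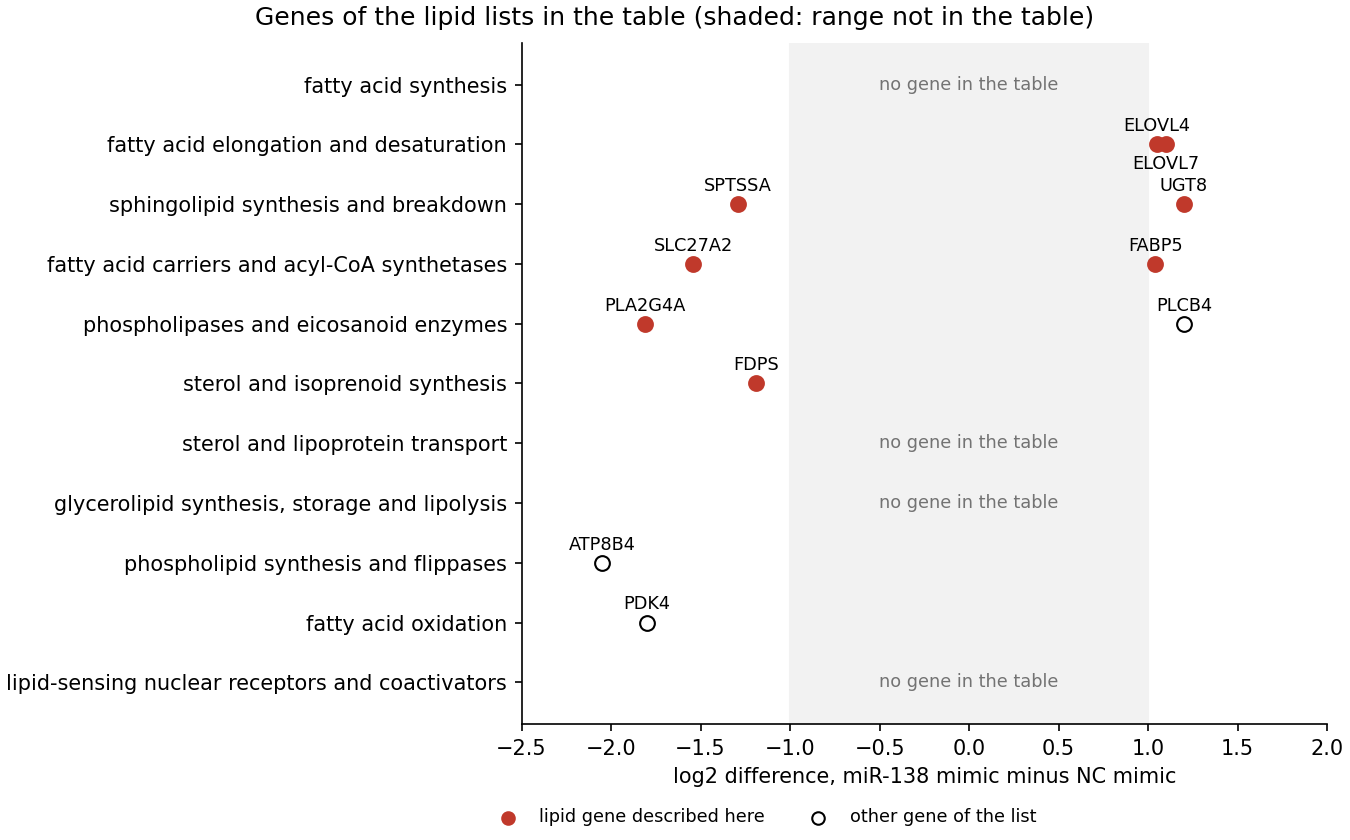
Log2 difference, miR-138 mimic minus NC mimic (horizontal axis), of each gene of the 11 lipid lists found in the table (rows), with the 8 genes described here in red and other list genes as open circles. The shaded range between -1 and 1 is not in the table, and ATP8B4, at -2.05, lies farthest to the left. No list has more than 2 genes here. Both genes of the elongation list are higher, and the sphingolipid, carrier and phospholipase lists each have 1 higher and 1 lower. Among all features with 1 gene, 41.2% were higher and 58.8% were lower.

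With 2 arrays, likeness between genes could be measured only as distance in the plane of both log2 signals. UGT8 had the largest positive difference of the 8. Its nearest features with 1 gene were USP41P (7.64 on the miR-138 mimic array and 6.41 on the NC mimic array, a distance of 0.081) and PLCB4 (0.099). For PLA2G4A, with the largest negative difference, they were TMT1A (5.61 on the miR-138 mimic array and 7.57 on the NC mimic array, a distance of 0.112) and ATP8B4 (0.175). The distances show similar readings on these arrays and nothing more.

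Markers of other cell types gave no independent check of the culture, because the table holds only features with large differences. None of 12 lung epithelium and lung cancer markers was in it, nor any of 6 immune or 5 adipocyte markers. Of 6 hepatocyte markers CPS1 and HPD were in the table, and of 9 fibroblast and endothelium markers DCN, all lower with the miR-138 mimic, with log2 differences of -2.10, -2.70 and -2.47. Their part in the lipid gene differences was not tested.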

How the data were processed

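Total RNA of H1299 cells was read on 1 array per mimic. The deposited values are log2 signals with 2 decimals, 1 per transcript cluster, which pools the probes of a gene, made by the authors with Affymetrix Expression Console, per the submitters' processing notes. For its version, the summarisation and the normalization, the entry is "not given in the sources used here". That the base is 2 and that the limit is 1 were read from the values. A list limited in this way leaves out every smaller difference, so a share of members that differed could not be computed.

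Differences were computed as miR-138 mimic minus NC mimic. As each group had 1 array, no test was possible, and the number of arrays limits the precision. The platform annotation gave 1 gene for 221 features, several for 9 and none for 13. All 8 lipid genes matched a gene identifier of RefSeq (GRCh38.p14), and the chromosome coded in each feature ID was that of the RefSeq gene. Array coordinates were not used because the feature IDs name no build. Hybridisation shared with related genes or pseudogenes could not be separated.

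The members, the 11 lipid lists and the 5 marker lists were chosen with earlier results of these data known. All 8 members and every list gene in the table were named. So were the 2 features nearest to each of the members with the largest positive and the largest negative difference. Alternatives were centring each array, leaving out the lowest 25% of mean levels, a log2 limit of 1.2, the mean in place of the median, and counting features with several genes. Counting of directions was run on simulated data without noise, where it recovered 200 of 200 planted directions. That outcome was fixed by the simulation, so it checks the code and not the data. Python 3.11.15, pandas 2.3.3, NumPy 2.4.6 and Matplotlib 3.10.9 were used.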

Additional observations from a re-analysis of the deposited data

How the results depend on the processing

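Array medians could be taken only over the 243 features of the table, all of which differ by at least 1. They are not medians of the whole arrays. Setting both arrays to the same such median raised each log2 difference by 0.06 and left 4 genes higher and 4 lower. It moved the median difference of the 8 from -0.075 to -0.015. That median falls in the range between the higher and the lower genes, where the table holds nothing, and moves with single genes: it was -1.19 without the lowest 25% of levels, which removes ELOVL7, and -1.415 at a log2 limit of 1.2. The mean was -0.18. The median size of the differences, 1.195 (1.23 over all features), became 1.2 without the lowest 25% and 1.415 at the limit of 1.2. At that limit 1 of the higher genes remained, UGT8, with 3 of the lower ones, SPTSSA, SLC27A2 and PLA2G4A, and the genes of the lipid lists went to 2 higher and 5 lower (5 higher and 6 lower without the limit). Features with several genes added none to the lists. No direction of any of the 8 genes changed under the alternatives, which could not turn a sign because every difference is at least 1 in size. No paired analysis was possible because each mimic has a single array, and no replicate could be left out.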

Other observations

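Other genes that act on lipids or on lipid messengers were in the table without belonging to the lists. They were picked after their values were seen, describe these 2 arrays only, and are not all such genes of the table. Beside PLCB4, which was higher, 3 genes of phosphoinositide signalling were lower with the miR-138 mimic. These were ITPR1, the calcium channel that inositol trisphosphate opens (6.21 on the miR-138 mimic array and 7.45 on the NC mimic array, -1.24), PIP5K1B, a kinase that makes a phosphoinositide (4.65 on the miR-138 mimic array and 5.80 on the NC mimic array, -1.15), and IMPA2, a phosphatase that returns inositol phosphate to inositol (8.93 on the miR-138 mimic array and 10.20 on the NC mimic array, -1.27). CLU, the secreted chaperone also known as apolipoprotein J, was lower (9.47 on the miR-138 mimic array and 10.80 on the NC mimic array, -1.33). The lipid anchor genes ZDHHC21, a protein palmitoyltransferase (5.97 on the miR-138 mimic array and 4.89 on the NC mimic array, 1.08), and PIGH, a subunit of the enzyme that starts glycosylphosphatidylinositol anchors (8.5 on the miR-138 mimic array and 7.37 on the NC mimic array, 1.13), were both higher. Of the others picked, all were lower. MGST2 and MGST3, membrane enzymes that can make a leukotriene, read 6.07 and 8.65 on the miR-138 mimic array and 7.42 and 9.70 on the NC mimic array (-1.35 and -1.05). ABCG2, a drug and lipid efflux pump, read 6.86 on the miR-138 mimic array and 8.15 on the NC mimic array (-1.29). B4GALT1, a galactosyltransferase, read 8.90 on the miR-138 mimic array and 9.94 on the NC mimic array (-1.04). TMT1A, a methyltransferase found on lipid droplets, differed by -1.96 (5.61 on the miR-138 mimic array and 7.57 on the NC mimic array).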
